A study of Mus musculus with 12 samples.

Results

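The comparison described here is that of ventilator-injured lungs with and without nmMLCK, the form of myosin light chain kinase made in non-muscle cells. It sets the 3 nmMLCK-/- VILI arrays against the 3 WT-VILI arrays, 6 of the 12 arrays in the series, and covers every gene that could be read. Members are all genes that a probe set with 1 gene symbol names; where several did, the brightest on average stood for the gene. Of 18193 such genes, 12309 had a mean log2 signal at or above 3.06, the 40th percentile of all probe sets, and were tested. The other 5884 were not.

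Total lung RNA of male C57BL/6 mice aged 8 to 12 weeks was hybridised to Affymetrix mouse genome arrays. Wild-type and nmMLCK-/- mice, the latter called the knockout below, either breathed spontaneously (SB) or underwent 4 h of injurious mechanical ventilation (VILI), and each of the 4 groups has 3 arrays. Sample labels give 40 ml/kg as the volume of a breath where the series description has 30 ml/kg. Breaths were given 65 times per min, with 0 cm H2O of pressure kept at the end of each. A gently ventilated group is not among these arrays, and the labels state neither how the knockout was made nor whether the wild-type mice were littermates. Nothing in the labels says more of the replicates than their number, so the p-values measure the spread between these arrays.

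The enzyme phosphorylates the light chain of myosin, which makes actomyosin fibres contract. Its long isoform works in endothelial and other non-muscle cells, where contraction pulls on cell junctions and opens gaps in the vascular wall, while the short isoform from the same gene, Mylk, serves smooth muscle. Overstretched lungs leak, release chemokines and draw in neutrophils, and the comparison asks what differs between the genotypes once that injury is under way. The markers of the labelled tissue were high in all 6 VILI arrays: Sftpc, the surfactant protein of alveolar type 2 cells, had log2 signals of 15.70 to 15.80, and Ager, a marker of alveolar type 1 cells, 15.17 to 15.32. Over the tested genes the arrays correlated at 0.9913 to 0.995 within wild-type VILI, 0.9916 to 0.9964 within knockout VILI and 0.9846 to 0.9954 between them. Along their first principal component, with 43.3% of the variance, knockout VILI replicate 3 (28.3) and wild-type VILI replicate 1 (-23.1) stood at the ends.

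Few genes passed the threshold between the genotypes under VILI. A gene is called where its limma p, adjusted by Benjamini-Hochberg over the 12309 genes, is under 0.05. By this rule 13 genes (0.106% of those tested) were called, 6 higher in the knockout (0.0487%) and 7 lower (0.0569%). The 6 that rose were Igha, Jchain, Atp13a4, Clec16a, Ammecr1 and Tbrg3, and the 7 that fell were Arntl, Upk1b, Dubr, Vtn, Slc35a5, Ikzf4 and Cers3. Counting these 13, an unadjusted p under 0.05 was reached by 1070 genes, 575 higher and 495 lower. In 2518 genes (20.5%) the 3 knockout and 3 wild-type arrays did not overlap, 1370 higher in the knockout (11.1%) and 1148 lower (9.33%). The median log2 difference over all genes was 0.01 and the median standard error 0.15. The deposited arrays have nearly equal medians, so a shift of all genes together could not have been seen. Differences below are knockout VILI minus wild-type VILI in log2 units, with the standard error (SE) of the fit and n = 3 arrays per group, and "adjusted p" is the limma value over all genes.

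**Figure D1:**
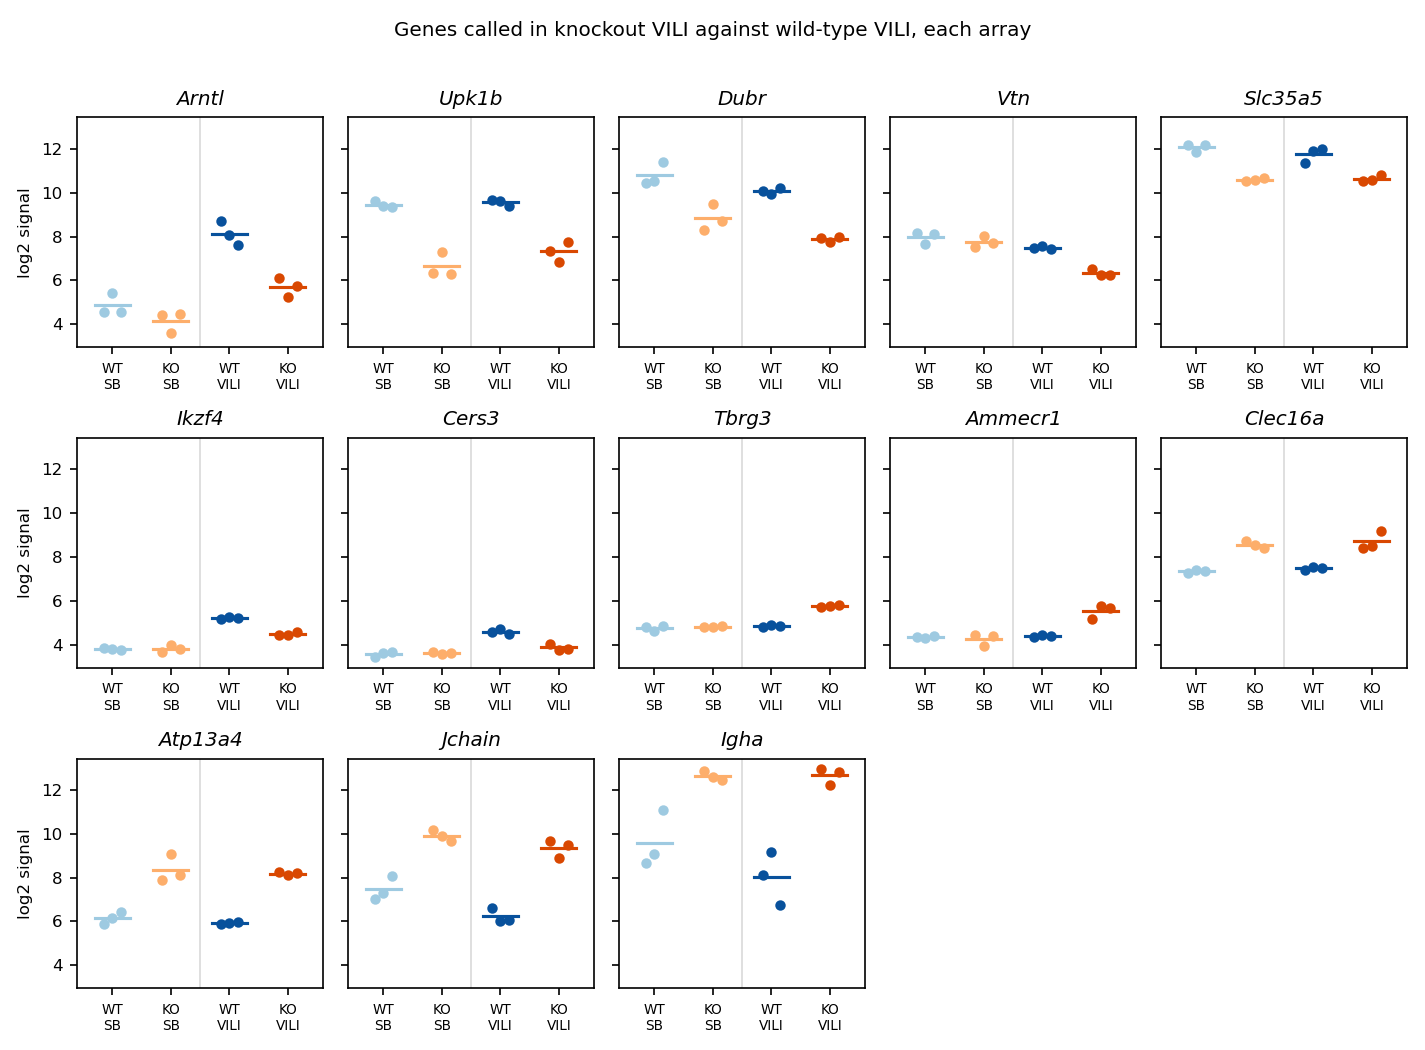
Log2 signal of the 13 called genes on each array, 3 points per group with a line at the mean, for wild type (WT) and knockout (KO) under SB and VILI; all panels share 1 axis. Igha, Jchain, Atp13a4, Clec16a, Upk1b, Dubr, Slc35a5 and Arntl are separated by genotype in both conditions, while Tbrg3, Ammecr1, Ikzf4, Vtn and Cers3 overlap under SB and are separated under VILI.

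The number of calls depended on single arrays. Of the wild-type arrays, dropping SB replicate 1 left 3 calls, dropping VILI replicate 1 left 3, and dropping VILI replicate 2 or VILI replicate 3 left 2. Of the knockout arrays, dropping SB replicate 1 left 7, SB replicate 3 left 4, VILI replicate 1 left 3, VILI replicate 2 left 2 and VILI replicate 3 left 4. Without replicate 2 of wild-type SB or of knockout SB there were 11 calls, each time with 9 of the 13. Without wild-type SB replicate 3 there were 19, all 13 among them. Jchain and Tbrg3 were called whichever of the 12 arrays was dropped (largest adjusted p = 0.0387 for both). The other 11 genes lost the call in at least 6 of these 12 fits, though none of their differences moved by 1.5 times.

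The targeted gene was read by 3 probe sets, and none of them separated the genotypes past the threshold. The dimmest of them had log2 signals of 5.38, 5.98 and 5.36 in wild-type VILI replicates 1 to 3 and 4.86, 5.10 and 4.52 in the knockout. All 3 knockout values were lower, at a difference of -0.74 ± 0.47 (limma over all probe sets, adjusted p = 0.609). A two-sided exact permutation test gave p = 0.1, the smallest that the 20 arrangements of 3 against 3 allow. The other probe sets, both with log2 signals above 12.4 in every VILI array, stood at -0.15 ± 0.26 (adjusted p = 0.893) and -0.14 ± 0.08 (adjusted p = 0.559), with overlapping arrays. Under SB the differences were -0.97 ± 0.47, -0.70 ± 0.26 and -0.22 ± 0.08 in the same order. None of these passed either, and only the last had arrays that did not overlap. Which isoform any of the probe sets reads is not stated, and the short isoform comes from the same gene, so these values do not check the genotype labels.

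Immunoglobulin A transcripts gave the largest difference. Igha, the constant region of the IgA heavy chain, had signals of 8.13, 9.15 and 6.74 in wild-type VILI lungs and 12.94, 12.22 and 12.82 in the knockout. The lowest knockout array stood over 3 log2 units above the highest wild-type array. The rise was 4.66 ± 0.66, or 25.2-fold (adjusted p = 0.0372), a call that survived the loss of 1 array in 1 of 12 cases (largest adjusted p = 0.209, without knockout VILI replicate 3).

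Jchain, the joining chain that links IgA into dimers and IgM into pentamers, read 6.60, 6.04 and 6.05 in wild type and 9.67, 8.88 and 9.47 in knockout. It rose by 3.11 ± 0.29, or 8.63-fold (adjusted p = 0.00347). Both differences were also present under SB, at 3.03 ± 0.66 for Igha and 2.44 ± 0.29 for Jchain, again with no overlap. Igha did not pass under SB (limma over all probe sets, adjusted p = 0.48). The VILI difference minus the SB difference was 1.62 ± 0.94 for Igha and 0.67 ± 0.41 for Jchain. Neither passed (limma over all probe sets, adjusted p = 0.964 for both), so a dependence on ventilation was not settled. Of the 10 tested B and plasma cell markers Igha and Jchain were the ones called under VILI. The IgM heavy chain Ighm stood at 0.44 ± 0.40 (adjusted p = 0.801; 0.26 to 0.80 with 1 array dropped) and the B cell surface protein Ms4a1 (CD20) at -0.34 ± 0.55 (adjusted p = 0.917; -0.58 to -0.19 with 1 array dropped). The list's median was 0.07, against 0.01 for all genes. In whole lung RNA, more cells of a type and more RNA per cell cannot be told apart, here or in any result below.

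Upk1b, a uroplakin of bladder and mesothelial cells, read 9.66, 9.63 and 9.41 in wild type and 7.36, 6.83 and 7.77 in knockout. It fell by 2.24 ± 0.28 on the log2 scale, 4.74-fold (adjusted p = 0.023). The 8 other tested mesothelial markers ran from -0.20 to 0.66 and none was called, with Muc16 at 0.66 ± 0.27 (adjusted p = 0.532) and Msln at 0.33 ± 0.22 (adjusted p = 0.7). With replicate 3 of wild-type VILI dropped these were 0.39 and 0.22. The median of the 9 genes was 0.09.

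A further 4 called genes lie, like Upk1b, on chromosome 16, the chromosome that carries Mylk. Atp13a4, a P-type ATPase, read 5.91, 5.95 and 5.96 in wild type and 8.24, 8.11 and 8.19 in knockout, a rise of 2.24 ± 0.26 or 4.73-fold (adjusted p = 0.0168). Clec16a, an endosomal regulator of mitophagy, read 7.40, 7.56 and 7.50 against 8.42, 8.52 and 9.20, a rise of 1.22 ± 0.18 (adjusted p = 0.0405). Dubr, a long non-coding RNA, read 10.06, 9.96 and 10.20 against 7.93, 7.75 and 7.97, a fall of 2.19 ± 0.30 on the log2 scale (adjusted p = 0.0372). Each of these sets of arrays was widely separated by genotype.

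Slc35a5, a member of the nucleotide sugar transporter family, read 11.36, 11.88 and 12.00 in wild type and 10.54, 10.58 and 10.78 in knockout. It fell by 1.11 ± 0.16 (adjusted p = 0.0372), and its 4 probe sets past the filter agreed in sign, as did the 4 of Upk1b. Averaging its probe sets gave -1.07 and ended the call (adjusted p = 0.0836). Under SB the 5 genes had differences of -2.79 (Upk1b), 2.22 (Atp13a4), -1.96 (Dubr), -1.47 (Slc35a5) and 1.19 (Clec16a), each with the sign seen under VILI and no overlap of arrays.

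Chromosome 16 held 396 tested genes, of which the 5 called make 1.26%, against 0.106% of all genes. Counted in tested genes from Mylk along the chromosome, Atp13a4 lay 42 before it, Upk1b 36 after it, Slc35a5 52 after it, Dubr 69 after it and Clec16a 162 before it. An unadjusted p under 0.05 in both conditions with the same sign was seen in 16 of the 396 (4.04%), while on every other chromosome that share lay between 0% and 0.683%. The conditions share no arrays. Among the 16 without a call under VILI were the dynein light chain gene Tctex1d2, 18 genes before Mylk (0.71 ± 0.17; 0.83 under SB), and the phospholipase-like gene Plcxd2, 58 after it (-1.27 ± 0.23; -0.65 under SB). A sequence difference under a probe and a difference in RNA level give the same signal on these arrays, and which of them was read here was not tested.

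**Figure D2:**
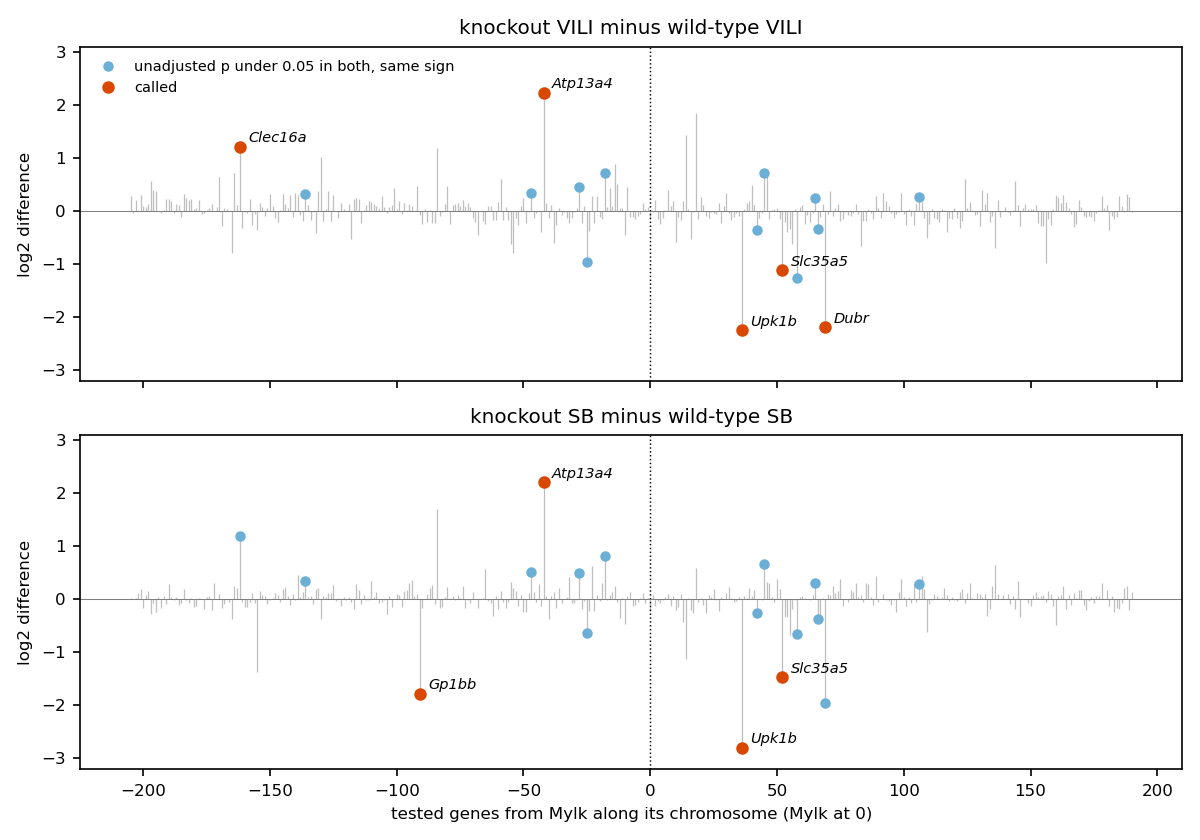
Log2 difference between the genotypes under VILI (top) and SB (bottom) for 396 tested genes of chromosome 16 in their order, with Mylk at 0 on the x axis. Orange points mark called genes and blue points genes with an unadjusted p under 0.05 and the same sign in both conditions; these lie from 162 tested genes before Mylk to 106 after it.

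Nnt encodes the mitochondrial transhydrogenase that some C57BL/6 substrains lack in working form. Its signals were 10.54, 10.52 and 10.50 in wild-type VILI and 11.52, 11.58 and 12.26 in knockout VILI, a difference of 1.26 ± 0.38 (adjusted p = 0.392). In the SB groups both levels occurred within a genotype, with 11.78, 12.06 and 10.60 in wild type and 10.68, 11.67 and 10.75 in knockout. The labels name no substrain.

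The circadian clock is a loop in which Arntl (BMAL1) and Clock switch on their own repressors of the Per and Cry families, together with output factors such as Dbp, Tef and Hlf that carry the rhythm to other genes. Members with Arntl's phase and members with the opposite phase therefore tend to move apart. Under VILI the knockout had less Arntl than wild type, the 1 call among 16 tested clock genes. In 10 of the 16 (62.5%, against 20.5% of all genes) the arrays did not overlap, 7 higher and 3 lower, and the list's median was 0.24.

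Promoters of 3 clock genes are shown because they carry the sites through which the loop is known to act, read from RefSeq windows of GRCm38.p6 over the 250 bases before the start, with matches in capitals. The motifs searched on both strands were the E-box CACGTG bound by the Arntl and Clock pair, the D-box TTATGTAA bound by Dbp, Tef and Hlf, and the RORE core AGGTCA bound by the Ror and Nr1d receptors.
Ciart, chr3:95882229-95882478, minus strand: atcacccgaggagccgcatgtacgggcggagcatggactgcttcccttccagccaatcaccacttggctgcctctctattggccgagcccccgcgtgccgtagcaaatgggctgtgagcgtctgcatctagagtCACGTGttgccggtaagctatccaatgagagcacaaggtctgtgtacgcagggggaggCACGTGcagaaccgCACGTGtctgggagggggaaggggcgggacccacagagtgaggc
Tef, chr15:81811164-81811413, plus strand: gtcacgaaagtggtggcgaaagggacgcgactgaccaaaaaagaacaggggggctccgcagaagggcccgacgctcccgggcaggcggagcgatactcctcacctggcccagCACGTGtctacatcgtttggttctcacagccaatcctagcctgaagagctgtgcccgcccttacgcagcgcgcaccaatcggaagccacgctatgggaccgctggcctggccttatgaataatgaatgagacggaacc
Per3, chr4:151044666-151044915, minus strand: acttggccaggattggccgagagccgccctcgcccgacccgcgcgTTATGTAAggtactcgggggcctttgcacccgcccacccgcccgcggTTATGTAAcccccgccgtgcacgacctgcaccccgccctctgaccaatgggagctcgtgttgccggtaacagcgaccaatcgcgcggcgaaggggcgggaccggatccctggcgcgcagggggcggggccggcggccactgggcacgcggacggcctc

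Ciart had 3 E-boxes, beginning 44, 58 and 116 bases before the start, and Per3 had 2 D-boxes, at 158 and 205. The 14 tested clock genes with a window had 19 windows, and all 27025 genes had 32851. An E-box was held by 4 of the 14 genes (Ciart, Cry1, Per1 and Tef), against 6.86% of all genes, and a D-box by 1, against 0.977%. The RORE core was found in 4 of the 14 (Clock, Nfil3, Nr1d2 and Per1) and in 15.8% of all genes. By window, 5, 1 and 4 of the 19 held these motifs, against 6.02%, 0.819% and 14% of all windows. A match is a description of the letters, and none of these sites was measured.

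Arntl itself read 8.70, 8.07 and 7.61 in wild-type VILI lungs and 6.10, 5.24 and 5.77 in the knockout. It fell by 2.42 ± 0.36 on the log2 scale, 5.36-fold (adjusted p = 0.0408), and passed in 3 of the 12 fits with an array dropped (largest adjusted p = 0.219, without knockout VILI replicate 2). With ventilation Arntl rose in both genotypes, by 3.26 in wild type and 1.54 in knockout. Clock, its partner, read 10.81, 10.75 and 10.79 against 10.47, 10.28 and 10.24, a difference of -0.45 ± 0.10 that did not pass (adjusted p = 0.253).

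The output factors ran the other way and did not pass. Hlf read 8.15, 9.42 and 8.70 in wild type and 10.14, 10.48 and 10.74 in knockout (1.69 ± 0.30, adjusted p = 0.121). Dbp read 8.60, 9.29 and 9.40 against 10.30, 10.46 and 10.57 (1.35 ± 0.30, adjusted p = 0.286). Tef, whose E-box is printed above, read 10.76, 11.20 and 11.32 against 11.85, 11.91 and 12.02 (0.83 ± 0.15, adjusted p = 0.129). No wild-type array of these 3 genes reached the lowest knockout array.

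Among the repressors, Per3 read 7.67, 8.93 and 8.96 in wild type and 9.73, 9.81 and 10.31 in knockout (1.43 ± 0.33, adjusted p = 0.319). The next 4 genes were chosen after their values were seen. Per2 was higher by 0.64 ± 0.20 (adjusted p = 0.412) and Ciart, a repressor of the Arntl and Clock pair, by 0.74 ± 0.34 (adjusted p = 0.583). Nr1d2, a receptor that represses Arntl, stood at 0.29 ± 0.11 (adjusted p = 0.496), but at -0.49 when its probe sets were averaged. Nfil3, which opposes Dbp at the D-box, had lower arrays in the knockout at -1.07 ± 0.54 (adjusted p = 0.611). Cry1, Cry2, Per1, Nr1d1, Bhlhe40 and Rora had overlapping arrays, with differences between -0.29 and 0.38.

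Under SB the genotype differences were 0.34 for Hlf, 0.38 for Dbp, 0.13 for Per3 and -0.71 ± 0.36 for Arntl, whose SB arrays did not overlap either. The difference of the genotype effects did not pass for any of them (Arntl -1.71 ± 0.51, unadjusted p = 0.00682, adjusted p = 0.867). Mice were kept in a 12 h light-dark cycle, and the labels do not give the hour at which lungs were taken, so genotype and hour of sampling cannot be told apart.

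**Figure D3:**
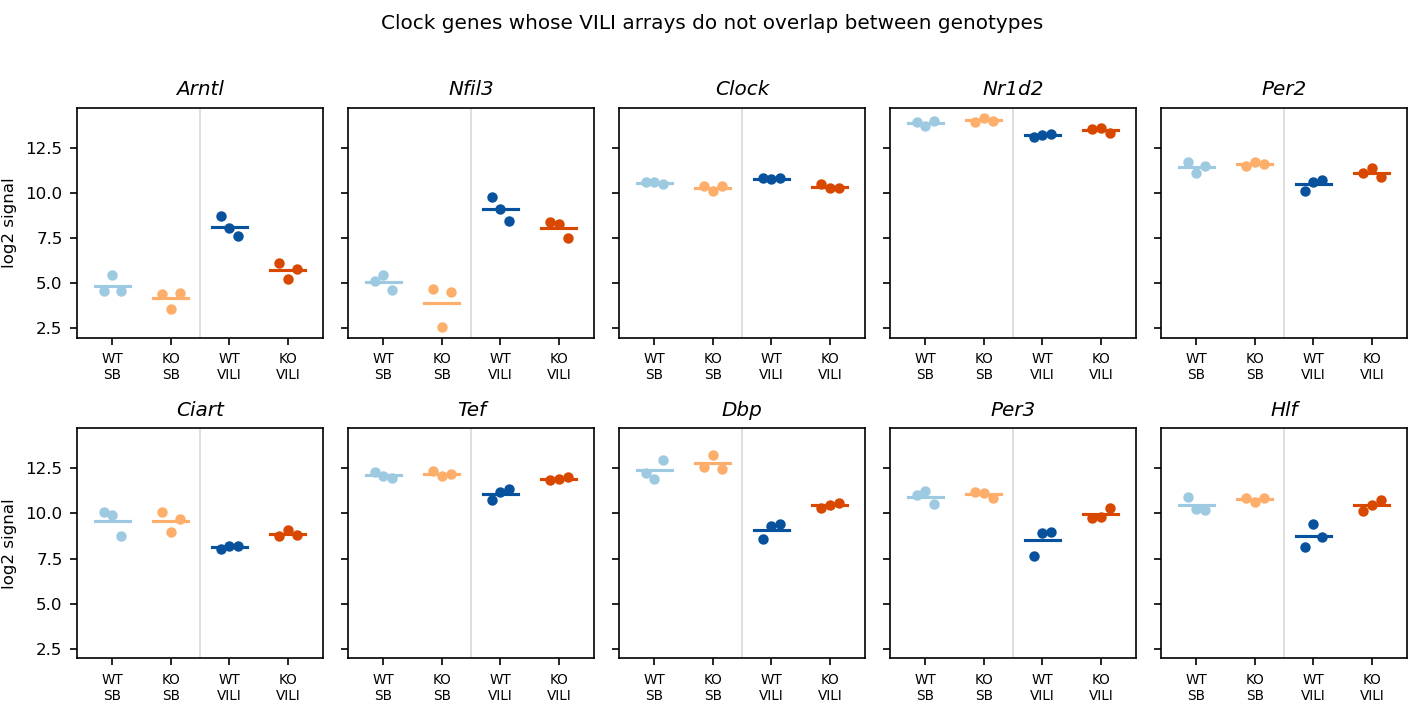
Log2 signal on each array of the 10 clock genes whose VILI arrays did not overlap between genotypes, from the most negative to the most positive difference, with lines at group means. Arntl, Nfil3 and Clock are lower in the knockout VILI lungs and the other 7 higher, while the SB arrays of the genotypes overlap in 8 of the 10 panels.

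The remaining 5 called genes differed under VILI and had SB differences between -0.21 and 0.06. Tbrg3 read 4.83, 4.91 and 4.85 in wild type and 5.71, 5.76 and 5.81 in knockout, against 4.63 to 4.85 in the 6 SB arrays. It rose by 0.90 ± 0.08, or 1.87-fold (adjusted p = 0.00347). Ammecr1 read 4.34, 4.44 and 4.41 against 5.18, 5.79 and 5.67, a rise of 1.15 ± 0.17 (adjusted p = 0.0405). In both genes the knockout VILI arrays stood apart from the other 9 arrays.

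Vtn encodes vitronectin, an adhesion protein of plasma and matrix that binds integrins and stabilises the plasminogen activator inhibitor. It read 7.46, 7.56 and 7.41 in wild-type VILI and 6.52, 6.24 and 6.24 in knockout VILI, a fall of 1.14 ± 0.16 (adjusted p = 0.0372). Ikzf4, the zinc finger factor Eos, read 5.20, 5.26 and 5.21 against 4.44, 4.45 and 4.57, a fall of 0.74 ± 0.09 (adjusted p = 0.023). Cers3, a ceramide synthase, read 4.58, 4.71 and 4.51 against 4.06, 3.76 and 3.84, a fall of 0.72 ± 0.10 (adjusted p = 0.0405). In Ikzf4 and Cers3 all 6 SB arrays lay below the VILI arrays of their own genotype, so the knockout VILI arrays stood between SB and wild-type VILI. With the probe sets of a gene averaged, Vtn stood at -0.64 (adjusted p = 0.31) and Ikzf4 at -0.59 (adjusted p = 0.369), both without a call.

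Whether a genotype difference itself differed between VILI and SB was tested for every gene, and none passed (limma, smallest adjusted p = 0.244, for Tbrg3; 619 genes had an unadjusted p under 0.05). Leaving out wild-type SB replicate 3 gave 6 calls. Under SB alone 6 genes were called (0.0487%) and 813 (6.6%) had arrays that did not overlap. Dropping replicate 1 or 2 of the wild-type SB group left 0 of these calls and dropping its replicate 3 gave 16, while in the knockout SB group dropping replicate 2 gave 13 and dropping replicate 3 left 0. Arrays of an SB group also differed more from each other: the median standard deviation of a gene was 0.19 in wild-type SB and 0.17 in knockout SB, against 0.12 and 0.13 in the VILI groups. Of the 13 genes called under VILI, 4 were also called under SB (30.8% of the 13 and 66.7% of the 6), and 10 had the same sign there, against 54.1% of all genes. Across all genes the differences in the 2 conditions had a Pearson r of 0.15 and a Spearman coefficient of 0.09, as a description over genes, which are not independent.

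**Figure D4:**
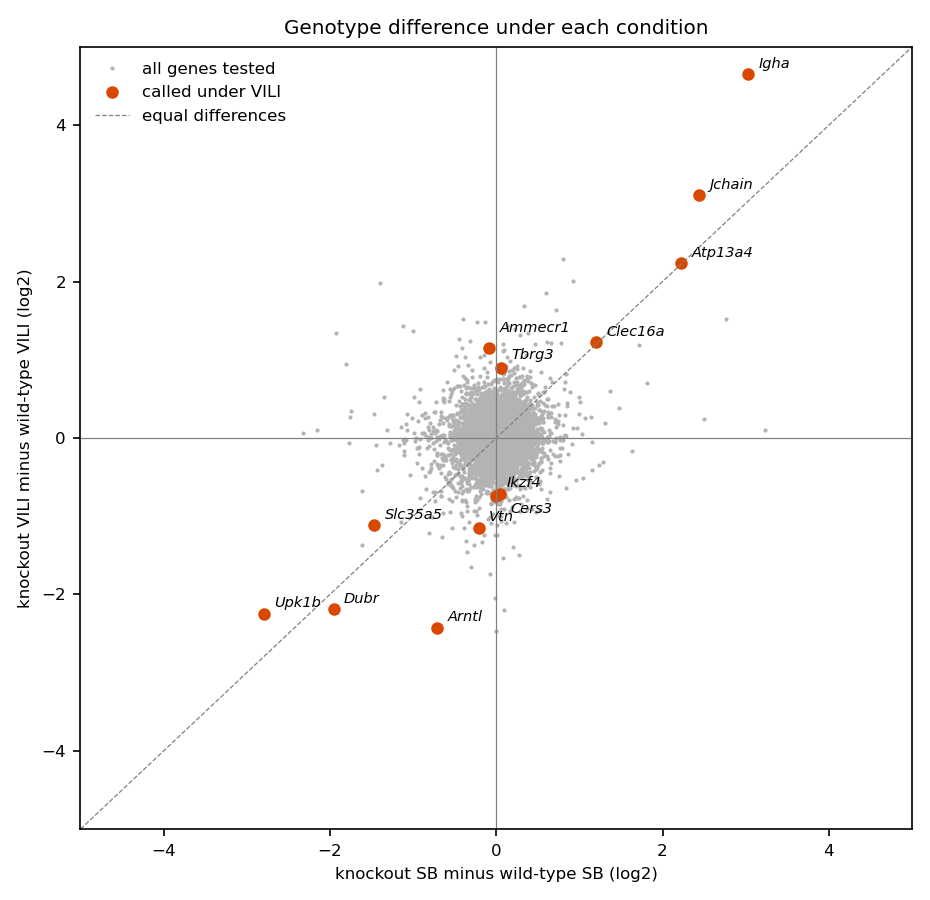
Genotype difference under VILI (y axis, log2) against that under SB (x axis, log2) for 12309 genes, with the 13 genes called under VILI in orange and a dashed line where both are equal. Igha, Jchain, Atp13a4, Clec16a, Dubr, Slc35a5 and Upk1b lie far from 0 in the same direction on both axes, and Tbrg3, Ammecr1, Ikzf4, Cers3 and Vtn near 0 on the x axis.

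Beyond the called genes, those with a difference of at least 1 and arrays that did not overlap were followed to the 12 with the smallest p in each direction, called genes counted. Cys1, a protein of the primary cilium, read 8.10, 8.44 and 8.20 in wild type and 9.41, 9.86 and 9.63 in knockout (1.39 ± 0.24, adjusted p = 0.107). Septin3 (1.06), Nat8f3 (1.20) and Epop (1.11) were also among these, with the clock genes Hlf, Dbp and Per3. Other probe sets past the filter, with overlapping arrays, stood at 0.05 for Septin3 and 0.52 for Nat8f3. On the low side, Alpl, the tissue alkaline phosphatase, read 7.88, 7.47 and 7.59 against 6.11, 6.36 and 6.37 (-1.36 ± 0.28, adjusted p = 0.237). With the 6 VILI arrays fitted alone both passed (adjusted p = 0.0364 for Cys1 and 0.0341 for Alpl).

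Dio2, the deiodinase that activates thyroid hormone, rose with ventilation by 4.73 in wild type and 3.64 in knockout. Its VILI signals were 8.33, 8.57 and 8.53 in wild type and 7.31, 7.36 and 7.03 in knockout, against 2.83 to 4.34 in the SB arrays. The difference was -1.25 ± 0.31 (adjusted p = 0.326; 0.0341 with the 6 VILI arrays alone). The kinase scaffold Mapk8ip1 gave a like value (-1.03 ± 0.23, adjusted p = 0.286, and 0.0293 with the 6 arrays). The other Mapk8ip1 probe set past the filter stood at -0.25. Vipr2, a receptor for vasoactive intestinal peptide, stood at -1.45 ± 0.37 (adjusted p = 0.326), and 1700109H08Rik at -1.65 ± 0.31 (adjusted p = 0.15). Heyl, a Notch target, was lower in both conditions, by -0.81 ± 0.18 under VILI and -0.74 ± 0.18 under SB. Its other probe sets past the filter stood at -0.52 and -0.58 under VILI, and at -0.07 and -0.20 under SB with overlapping arrays. Ccbe1, a lymphatic growth protein, was higher in both, by 0.63 ± 0.16 and 0.81 ± 0.16. Its other probe set stood at 0.04 under VILI, with overlapping arrays, and 0.76 under SB. None of the genes in this paragraph passed under VILI in the model used throughout, though Dio2 did with its probe sets averaged (-1.75, adjusted p = 0.0436), and Plcxd2 likewise (-1.59, adjusted p = 0.0309).

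Cytokines and chemokines carry the inflammatory signal of the overstretched lung. None of the 11 tested was called, 3 had arrays that did not overlap (27.3%, against 20.5% of all genes), all lower in the knockout (9.33% of all genes), and the list's median was -0.11. Cxcl5, an epithelial attractant of neutrophils, read 7.18, 5.25 and 4.63 in wild type and 3.43, 3.94 and 3.54 in knockout, where SB arrays read 3.17 to 3.41. The difference was -2.05 ± 0.49 (adjusted p = 0.326), and stood at -1.30 once replicate 1 of wild-type VILI was dropped. Cxcl2, likewise a neutrophil attractant, read 7.13, 6.28 and 7.28 against 5.15, 2.75 and 6.17 (-2.20 ± 0.66, adjusted p = 0.392), and stood at -1.23 without knockout VILI replicate 2. That knockout array lay close to the 6 SB arrays, at 2.37 to 2.68.

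Il6, the cytokine that drives the acute phase response, read 10.46, 9.05 and 7.44 in wild type and 8.97, 8.32 and 2.25 in knockout. Knockout VILI replicate 3 thus lay at the SB level of 2.06 to 2.13, and the groups otherwise overlapped. The difference of -2.47 ± 1.44 did not pass (adjusted p = 0.65) and was -0.34 without that array. Cxcl1 read 9.02, 6.79 and 6.89 against 7.06, 7.56 and 5.87 (-0.74 ± 0.56, adjusted p = 0.749), and stood at -0.01 with that group's replicate 1 dropped, the wild-type array at 9.02. Il33, an alarmin of epithelial and endothelial cells, had lower arrays in the knockout with a difference of -0.36 ± 0.29 (adjusted p = 0.76).

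Il1b showed no separation, at 10.10, 10.22 and 11.03 in wild type and 10.50, 9.80 and 10.86 in knockout (-0.07 ± 0.73, adjusted p = 0.992). The interferon-induced chemokine Cxcl10 stood at 0.34 ± 0.19 (0.55 without wild-type VILI replicate 1), and Il1a (-0.11), Lif (-0.08), Cxcl3 (-0.04) and Csf2 (0.04) closer to 0. Leaving out wild-type VILI replicate 3 or knockout VILI replicate 2 turned Il1b to 0.23, leaving out wild-type VILI replicate 2 turned Il1a to 0.01, and Cxcl3 turned positive without wild-type VILI replicate 3 (0.14), knockout VILI replicate 1 (0.13) or knockout VILI replicate 2 (0.08). The median of the list was -0.30 without knockout VILI replicate 3.

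**Figure D5:**
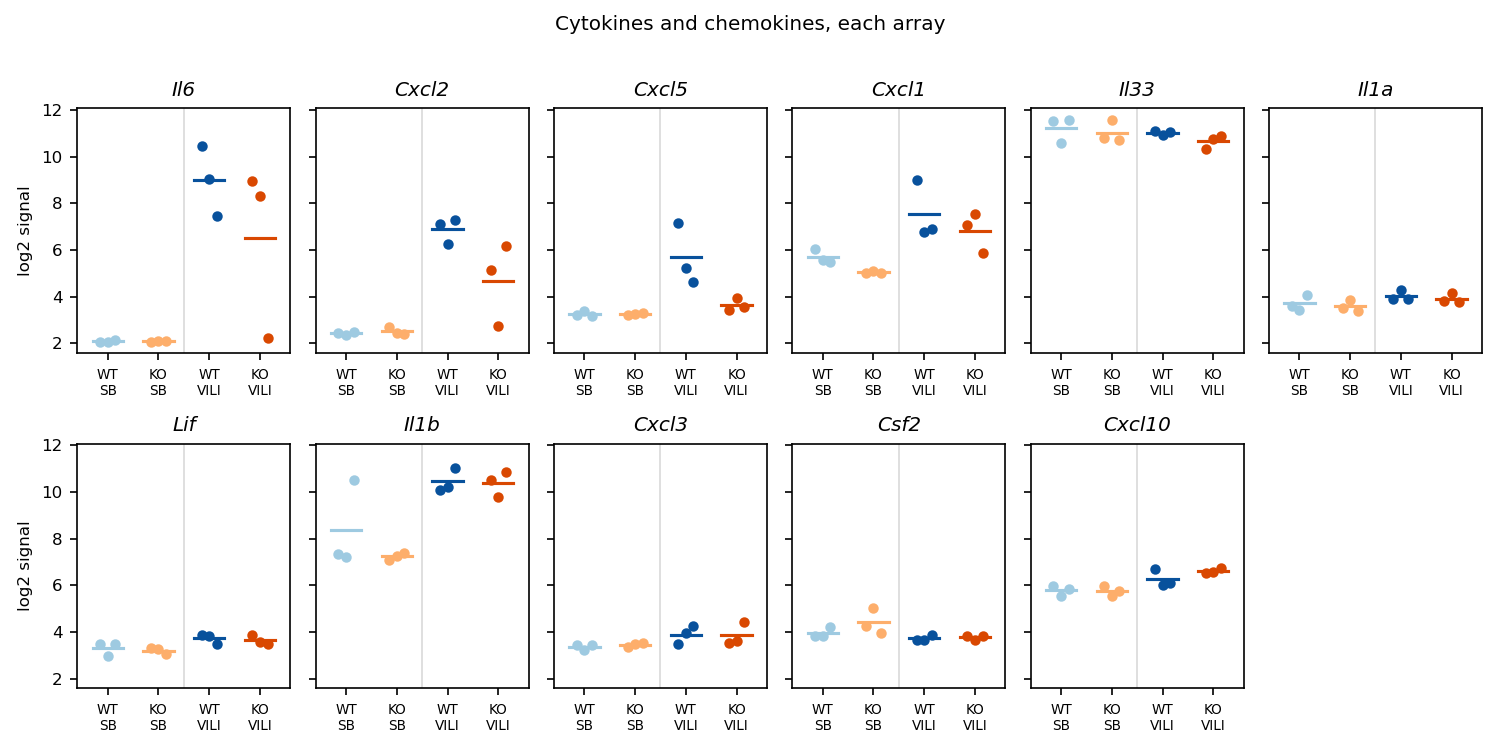
Log2 signal on each array of the 11 tested cytokines and chemokines, 3 points per group with a line at the mean, ordered from the most negative VILI difference. The lone low points of knockout VILI in the Il6 and Cxcl2 panels, at 2.25 and 2.75, come from replicates 3 and 2, and Cxcl5 stays between 3.43 and 3.94 in all 3 knockout VILI arrays.

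Receptors and signalling downstream of these cytokines gave few differences. In the interleukin 1 system 0 of 13 genes were called. The receptor antagonist Il1rn read 4.96, 4.86 and 5.55 in wild type and 4.51, 4.12 and 4.11 in knockout (-0.88 ± 0.29, adjusted p = 0.432). Among 17 NF-kB and Toll-like receptor genes the lipopolysaccharide co-receptor Cd14 read 10.74, 10.35 and 10.43 against 9.91, 9.66 and 9.98 (-0.65 ± 0.14, adjusted p = 0.236), where SB arrays lay between 9.53 and 9.90. The adaptor Traf1 stood at 0.86 ± 0.29 (adjusted p = 0.455) with overlapping arrays. Traf1 was 0.51 without knockout VILI replicate 3. The medians were -0.09 for the interleukin 1 list and -0.0047 for the NF-kB list.

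Neutrophil markers gave overlapping arrays almost throughout. None of the 14 tested was called, 1 had arrays that did not overlap (7.14%, against 20.5% of all genes), and the list's median difference was 0.31. Of the 14 differences 12 were positive and 2 negative. The largest was Stfa2l1 at 1.44 (1.13 to 1.92 with 1 VILI array dropped). Ngp stood at 1.34, and at 0.35 without knockout VILI replicate 3. The granule protease gene Mmp8 read 8.69, 8.45 and 10.74 in wild type and 10.21, 9.78 and 10.71 in knockout (0.94 ± 0.79, adjusted p = 0.779), and the difference ran from 0.52 to 1.66 as wild-type VILI replicate 2 or 3 was dropped. S100a8, a calprotectin subunit, stood at 0.31 ± 0.54 (adjusted p = 0.924). Relative to each gene's mean over the 12 arrays, the list's median per array ran from 0.79 to 1.71 in wild-type VILI and from 0.84 to 1.84 in knockout VILI. Under SB the list's median difference was -1.29, where wild-type SB replicate 3 stood at 1.14 and the other 5 arrays between -2.17 and -1.27.

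Of 15 tested alveolar macrophage markers, 4 had an unadjusted p under 0.05, all lower, where 495 of all 12309 genes were, and none was called (median -0.16). Car4 (-0.27, adjusted p = 0.39) was among the 4 and is also counted in the endothelial list. In 5 of the 15 (33.3%) the knockout arrays were all lower, against 9.33% of all genes. Siglecf, the lectin that marks these cells, read 8.83, 9.26 and 8.95 in wild type and 8.57, 8.32 and 8.27 in knockout (-0.63 ± 0.25, adjusted p = 0.532), and the lysosomal Cd68 stood at -0.61 ± 0.22 (adjusted p = 0.489). MHC class II presentation genes had 9 of 9 positive differences, 5 (55.6%) with non-overlapping higher arrays, against 11.1% of all genes, none called and a median of 0.26, beside 0.36 under SB. The class II chain H2-Aa stood at 0.28 ± 0.10 (adjusted p = 0.475), the peptide loader H2-DMb2 at 0.82 ± 0.33 (adjusted p = 0.532) and their transactivator Ciita at 0.72 ± 0.26 (adjusted p = 0.486), the last with 5.92 in knockout VILI replicate 1 and 4.77 and 4.83 in the others. Ciita, which lies on chromosome 16, was 0.34 without that array.

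Of the 24 tested contractile and cytoskeletal genes of the kinase's own pathway none was called. In 5 the arrays did not overlap, all higher in the knockout (20.8%, against 11.1% of all genes). The median was 0.04, or -0.01 with probe sets averaged. The non-muscle myosin heavy chain Myh9 read 13.68, 13.63 and 13.52 in wild type and 13.86, 13.95 and 13.99 in knockout (0.33 ± 0.08, adjusted p = 0.326), with Myh10 at 0.26 ± 0.10 and the actin crosslinker Flna at 0.26 ± 0.10. Rhoa was the lowest, at -0.34 (adjusted p = 0.493), and stood at -0.22 without knockout VILI replicate 3. Of the 24 differences 15 were positive and 9 negative, and all lay between -0.34 and 0.33.

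Junction genes, on which contraction pulls, had 4 of 19 members with an unadjusted p under 0.05, all higher (575 of 12309 genes overall). In 6 of the 19 the arrays did not overlap (31.6%, against 20.5% of all genes), 4 higher and 2 lower. None was called, 7 of the 19 differences were negative, and the median was 0.09, beside -0.12 under SB. Cingulin (Cgn), a tight junction linker to myosin, read 9.89, 10.24 and 9.77 in wild type and 10.39, 10.53 and 10.35 in knockout (0.46 ± 0.14, adjusted p = 0.392). The scaffold Tjp1 (ZO-1) stood at 0.19 ± 0.07 (adjusted p = 0.494) and Cldn1 at 0.35 ± 0.14. Endothelial markers had 4 of 24 at an unadjusted p under 0.05, all lower, 7 non-overlapping lower and 1 higher (33.3%, against 20.5%), none called and a median of -0.05. Among the 4 were Car4, also in the macrophage list, and Pecam1, also in the leukocyte adhesion list. Pecam1 read 12.74, 12.66 and 12.68 against 12.61, 12.30 and 11.88 (-0.43 ± 0.16, adjusted p = 0.489), and was -0.24 without knockout VILI replicate 3. The sphingosine 1-phosphate receptor S1pr1, which tightens the endothelial barrier, stood at -0.46 ± 0.18 (adjusted p = 0.53), and at -0.29 without the same array.

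Leukocyte adhesion genes had 7 of 16 members with non-overlapping arrays (43.8%, against 20.5% of all genes), 6 of them lower, none called and a median of -0.21. The junctional adhesion molecule Jam2 read 9.38, 9.26 and 9.41 in wild type and 8.84, 9.08 and 8.95 in knockout (-0.39 ± 0.12, adjusted p = 0.392). Jam2 also lies on chromosome 16. Jam3 stood at -0.92 ± 0.32 (adjusted p = 0.467) with overlapping arrays. Matrix and fibroblast genes had 10 of 21 with non-overlapping arrays (47.6%, against the same 20.5%), 9 of them lower, none called and a median of -0.24, with the gelatinase Mmp2 at -0.36 ± 0.13 (adjusted p = 0.489) and the proteoglycan Lum at -0.95 ± 0.42 (adjusted p = 0.573). Lum was -0.51 without knockout VILI replicate 3.

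Of the epithelial lists, alveolar type 2 markers had a median of -0.01 over 11 genes, type 1 markers 0.01 over 10, club cell markers 0.01 over 10 and ciliated cell markers 0.02 over 13, with none called. Podoplanin (Pdpn), a membrane protein of type 1 cells, read 12.73, 12.81 and 12.57 in wild type and 13.31, 13.25 and 13.25 in knockout, against 12.42 to 12.85 in SB arrays. The difference of 0.56 ± 0.09 did not pass (adjusted p = 0.0931) and passed with quantile normalization (0.0496) and with a trended robust prior (0.0334). Tmem100, an endothelial BMP target chosen after its values were seen, read 13.82, 13.87 and 14.00 against 13.44, 13.47 and 13.44 (-0.45 ± 0.07, adjusted p = 0.0854), and passed with no filter (0.0163) and with the trended robust prior (0.0146). Detoxifying genes under NRF2 had a median of 0.08 over 17, and arrays that did not overlap in 35.3%, 4 higher and 2 lower, against 20.5% of all genes. The glutathione transferase Gsta2 stood at 10.52 to 11.06 in wild type and 11.59 to 11.64 in knockout (0.76 ± 0.13, adjusted p = 0.107).

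The other pathway lists held no called gene. Immediate early genes, the first transcripts to respond to stretch, had 22 of 26 negative differences. Their median was -0.20, against 0.01 for all genes, with -0.28 under SB. Non-overlapping lower arrays were seen in 3 of the 26 (11.5%, near the 9.33% of all genes). EGFR ligands and prostaglandin synthesis genes had a median of -0.24 over 13, 4 of them with non-overlapping arrays (30.8%, against 20.5% of all genes). Hypoxia response genes had a median of -0.05 over 15 (-0.14 with probe sets averaged). Their arrays did not overlap in 33.3%, 2 higher and 3 lower, against 20.5% of all genes. Coagulation genes had a median of -0.09 over 14, with the urokinase receptor Plaur at -0.45 (-0.27 without knockout VILI replicate 3). Of these 14 genes 4 had non-overlapping lower arrays, against 9.33% of all genes. Glucocorticoid targets stood at a median of -0.02 over 18, with arrays that did not overlap in 38.9%, 3 higher and 4 lower, against 20.5% of all genes. Medians were 0.01 over 19 for heat shock chaperones, 0.04 over 20 for interferon-stimulated genes and -0.02 over 12 for complement. Genes of the IL-6 and STAT3 response stood at -0.07 over 15. Genes of the BMP, activin and TGF-beta pathways had a median of -0.08 over 20, cell cycle genes -0.05 over 18 and oxidative phosphorylation genes -0.06 over 27. The activin subunit Inhbb of the BMP and activin list read 10.52, 11.15 and 11.32 in wild type against 10.17, 10.15 and 10.45 in knockout (-0.74 ± 0.19, adjusted p = 0.326).

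Markers of other cells the lung sample could hold also included no called gene. Monocyte markers had a median of 0.0033 over 9, T and NK cell markers -0.15 over 12, platelet markers -0.08 over 7 and smooth muscle markers -0.07 over 13. Pericyte and fibroblast markers stood at -0.10 over 10, and 4 of them had non-overlapping lower arrays (40%, against 9.33% of all genes). Cardiac and skeletal muscle markers stood at 0.05 over 13, and the single mast cell and eosinophil marker at -0.05. Few markers were tested for erythroid cells (0.88 over 4, with overlapping arrays and Alas2 at 2.29 ± 1.27), neuronal and Schwann cells (-0.30 over 4) and adipose, thyroid or thymus tissue (-0.78 over 3).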

How the data were processed

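Whole-lung RNA of 12 arrays was analysed, 6 of them in the comparison. The authors deposited log2 values per probe set. Per the submitters' processing notes MAS5 and GCRMA were used, with roles not stated; no genome build is named there. The deposited log2 values were used as they stand. Of 45037 probe sets, 34945 had 1 symbol in the platform annotation, 932 several and 9160 none; only the first kind was used, 1 probe set per gene. Genes with a mean under 3.06 were left out.

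A model with 4 group means was fitted to all 12 arrays with limma 3.58.1 in R 4.3.3 (lmFit, eBayes), and p-values were adjusted by Benjamini-Hochberg over 12309 genes. The deposited values carry no count or detection call, so the depth of an array has no counterpart. Precision rests on the 3 arrays per group and on a spread per gene pooled over all 4 groups. The SB arrays therefore enter the standard errors and p-values of the VILI comparison. On simulated data for this comparison, with 200 of 12309 genes changed in each of 10 sets, the fit recovered 75.8% of 2-fold and 94.4% of 4-fold changes at 4.7% false calls. The simulated noise was independent, with the same spread of a gene in all arrays. In the real groups the median spread ran from 0.12 to 0.19. These shares therefore do not give the recovery or the false calls in the real arrays.

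Named were all called genes with non-overlapping arrays, the 12 smallest p-values in each direction among genes with a difference of at least 1 and non-overlapping arrays (called genes counted), up to 4 members per list by p, and 10 genes with like differences in both conditions. Per2, Nr1d2, Ciart, Nfil3, Tmem100 and genes given beyond this rule were chosen after their values were seen. The members and the 41 gene lists were chosen with earlier results of these data known, and no list was tested. Some genes belong to several lists. Alternatives were no filter, a 60th percentile filter, equal medians, quantile normalization, a replicate block, 6 arrays per fit, a trended robust prior, array weights, averaged probe sets, leaving out each array, and leaving out 2 SB arrays. Gene names, gene order and promoters came from RefSeq tables.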

Additional observations from a re-analysis of the deposited data

Results flagged for a closer look

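Pdpn, the podoplanin of alveolar type 1 cells, had genotype differences of opposite sign in the 2 conditions. All 3 knockout arrays lay above the wild-type arrays under VILI (0.56 ± 0.09) and all 3 lay below them under SB (-0.24 ± 0.09). The VILI difference minus the SB difference was 0.80 ± 0.13, and it did not pass over all genes (limma, adjusted p = 0.345).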

How the results depend on the processing

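Against 13 calls under VILI, 6 under SB and 0 for the difference between them, the counts moved as follows. With no filter there were 6 under VILI (4 of the 13 among them) and 1 for the difference, and with the 60th percentile filter 8 under VILI. With the 6 arrays of each comparison alone there were 0 under SB, and 14 under VILI of which 7 were among the 13. Array weights gave 852 under VILI, 102 under SB and 171 for the difference, with weights from 0.215 for wild-type SB replicate 3 to 9.973 for knockout VILI replicate 2. With 2 SB arrays left out together, replicate 3 of wild type and replicate 2 of knockout, a choice made after seeing the data, the counts were 28, 19 and 11. Leaving out 1 array gave 2 to 19 under VILI, 0 to 16 under SB and 0 to 6 for the difference. In each case the cause was not tested. Between wild-type and knockout VILI, arrays with the same replicate number had deviations correlated at r = 0.0472, -0.0112 and 0.0343. Arrays with unlike numbers had -0.0957 to 0.0864. So few values cannot exclude a pairing, and the SB arrays were not looked at in this way. The fit with a replicate block gave 2 calls under VILI, 0 under SB and 0 for the difference. Signs turned for Il1a (0.0682) and Csf2 (-0.0264) with array weights and for Nr1d2 (-0.4942) with averaged probe sets. Without 1 array, Il1b ran from -0.3014 to 0.2273, Il1a from -0.2395 to 0.0136 and Cxcl3 from -0.3214 to 0.1378. The median difference of all genes was 0.0132, and it was 0.0185 with array medians set equal and 0.0212 with quantile normalization. Among the 852 calls with array weights were many genes described above as not passing. They included Dio2, Mapk8ip1, Vipr2, Heyl, Ccbe1, Hlf, Dbp, Tef, Clock, Per3, Cxcl5, Cxcl2, Cd14, Il1rn, Myh9, Pecam1, S1pr1, Jam2, Siglecf and Pdpn.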
